A study of Mus musculus with 294 samples.

Results

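The 10 genes described here encode steps of glycolysis and targets of the response to low oxygen: Slc2a1, Pfkl, Aldoa, Pgk1, Pgam1, Eno1, Ldha, Pdk1, Bnip3 and Vegfa. They were taken by name from the table of raw read counts, where they are 10 of 15124 rows, and their counts were converted to CPM (the share of a cell's reads, times 1000000). The members were chosen by known function and by their counts in these same cells: Vegfa and Pfkl stood among the genes with the highest fold of 1 cluster of cells in earlier results. How the genes vary together in these cells is therefore a description, and it is not evidence for the choice. The data came from single EYFP-positive cells of mouse embryonic hearts, each sequenced as its own library. All cells carried the same genotype, Wnt1-Cre; R26-EYFP, in which a Cre driven from the Wnt1 promoter switches on a yellow fluorescent protein in the neural crest lineage. The cells came from the outflow tract near the aorticopulmonary septum at embryonic ages from E11.5 to E17.5, also E14.5 and E12.5, with no treatment, and were captured on Fluidigm C1 chips. The labels tie no cell to an age, an animal or a chip, so all cells counted as 1 sample and no test between cells was made. Below, cells are set apart by the number that opens their name, from 1 to 7, whose meaning is not given. Age, animal and chip cannot be told apart between these 7 name series, which together held every cell: 58, 48, 38, 38, 34, 34 and 44.

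Glycolysis splits glucose into pyruvate, and lactate dehydrogenase turns pyruvate into lactate when it is not passed on to the mitochondria. When oxygen is scarce, the factors HIF1A and EPAS1 are no longer degraded, pair with ARNT and bind the letters ACGTG or GCGTG in DNA near their target genes. Known targets include the glucose carrier Slc2a1, most glycolytic enzymes, the kinase Pdk1 that holds pyruvate back from mitochondria, the mitophagy factor Bnip3 and the vessel growth factor Vegfa. Fetal tissues are poor in oxygen, and mouse embryos without Hif1a have defects of the heart and vessels.

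The sequences upstream of 4 of the genes are shown because these genes span the range of matches to the HIF core letters and because no GENCODE exon overlaps the window. Each is the 250 bases before the RefSeq start site on GRCm38.p6, 5′ to 3′ on the gene's strand. Capitals mark ACGTG or GCGTG on either strand (CACGT or CACGC when read on the other strand). A CACGTG, which is also the E-box of MYC and other factors, counts as 2 matches. Ldha has 5 matches at chr7:46845554-46845803 (+ strand), 4 of them in 2 copies of CACGTG, and this window lies within the longer GENCODE gene. Pgam1 has 3 at chr19:41911621-41911870 (+ strand), and Pgk1 has 2 at chrX:106186850-106187099 (+ strand). Vegfa has 0 at chr17:46032378-46032627 (- strand).
Ldha: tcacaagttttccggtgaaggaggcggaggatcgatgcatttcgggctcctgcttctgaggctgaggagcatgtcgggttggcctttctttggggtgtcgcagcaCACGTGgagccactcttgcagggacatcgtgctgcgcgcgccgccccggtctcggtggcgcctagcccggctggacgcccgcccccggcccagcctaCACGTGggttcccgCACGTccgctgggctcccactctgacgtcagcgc
Pgam1: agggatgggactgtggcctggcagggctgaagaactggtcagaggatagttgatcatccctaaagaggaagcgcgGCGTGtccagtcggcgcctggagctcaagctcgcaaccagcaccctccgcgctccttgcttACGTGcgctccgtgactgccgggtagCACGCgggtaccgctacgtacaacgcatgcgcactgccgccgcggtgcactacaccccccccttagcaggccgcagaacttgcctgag
Pgk1: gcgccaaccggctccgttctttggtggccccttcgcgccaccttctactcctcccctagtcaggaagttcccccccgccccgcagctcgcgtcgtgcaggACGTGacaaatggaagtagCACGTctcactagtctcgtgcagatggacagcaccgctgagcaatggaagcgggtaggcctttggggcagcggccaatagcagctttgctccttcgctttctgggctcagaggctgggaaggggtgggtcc
Vegfa: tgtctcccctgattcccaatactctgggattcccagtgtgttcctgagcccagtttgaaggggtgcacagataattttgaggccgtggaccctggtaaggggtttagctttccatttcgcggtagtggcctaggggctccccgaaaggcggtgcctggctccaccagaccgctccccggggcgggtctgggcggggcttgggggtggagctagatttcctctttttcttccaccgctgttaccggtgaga
Over the 10 genes, Bnip3 also had 5 matches, Slc2a1 had 2, Pfkl, Eno1 and Pdk1 had 1 each, and Aldoa had 0. At least 1 match was thus found in 8 of the 10 windows (80%) and at least 2 in 5 (50%). Among all 27025 promoters of the table, 38.6% held at least 1 match and 16.8% at least 2. Among the 6817 promoters of genes detected widely enough to be analysed below, the shares were 60.2% and 30.3%. A match is a run of letters and not a binding site, and a window without one says nothing about elements farther away.

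Cells had 34046 to 3033857 reads, with a median of 1204543, and 2041 to 8805 genes with at least 1 read. Series 1 had the most genes per cell, with a median of 7718, and series 6 the fewest, with 3123. In series 1, no cell was without reads of Aldoa, Pgk1, Pgam1, Ldha or Bnip3. The 9 listed genes of cushion mesenchyme summed to between 820.1 and 72794 CPM in every cell. Single genes of that list were not in every cell: the share at 10 CPM ran from 58.2% for Dcn to 99.7% for Col3a1. Over all cells, summed markers of other cell types had medians of 0 to 1.5 CPM per cell. They reached 100 CPM in 68 cells for heart muscle, 64 for endothelium, 52 for neurons, 37 for glia and 19 for epicardium. In series 7 the heart muscle sum had a median of 58.9 CPM and a maximum of 42430, with 20 of 44 cells at 100 CPM. Only 4 of 7 endothelial, 3 of 6 epicardial and 4 of 5 neuronal markers were rows. Of the blood genes only Hbb-y was a row, and 1 cell reached 100 CPM.

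The entry of glucose was carried by few reads. Slc2a1, the widespread glucose carrier GLUT1 (chromosome 4, 119108711 to 119137983 in GENCODE M21 on GRCm38, as for all positions of genes here), ranged from 0 to 1240.3 CPM with a median of 0, and 170 cells had no read. It reached 10 CPM in 25.2% of cells (exact 95% interval 20.3 to 30.5%), from 14.7% in series 6 to 41.2% in series 5. Pfkl, the liver-type phosphofructokinase at the committed step of glycolysis (chromosome 10, 77986947 to 78010083), ranged from 0 to 1974 CPM, also with a median of 0. It reached 10 CPM in 36.1% of cells (30.6 to 41.8%), and series 5 was highest, at 61.8%. Both genes were thus without reads in most cells and abundant in a minority. All intervals here are for counting error alone, since the reads carry no molecular identifiers and several can stem from 1 molecule.

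The enzymes of the middle and the end of the path were found in most cells. Aldoa, the aldolase that splits the hexose (chromosome 7, 126795234 to 126800751), ranged from 0 to 3697 CPM with a median of 469.7, and 87.8% of cells reached 10 CPM (83.5 to 91.3%). Its series medians ran from 140.2 CPM in series 6 to 689.7 in series 7. Pgk1, the first enzyme of the path that yields ATP (chromosome X, 106187100 to 106203699), ranged from 0 to 3797 CPM with a median of 202.6, and 77.9% of cells reached 10 CPM (72.7 to 82.5%). Its series medians ran from 74.3 CPM in series 6 to 400.4 in series 7. Pgam1, the phosphoglycerate mutase (chromosome 19, 41911923 to 41918660), ranged from 0 to 4072 CPM with a median of 382.7, and its series medians ran from 92.8 in series 6 to 630.1 in series 4.

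Ldha, the lactate dehydrogenase subunit that favours lactate (chromosome 7, 46841475 to 46855627), was the most abundant of the set. It ranged from 0 to 8269 CPM, with a median of 753.6, and 89.8% of cells reached 10 CPM (85.8 to 93.01%). The Ldha medians of series 1 to 7 were 768.0, 757.8, 577.1, 1164, 1503, 43.9 and 776.0 CPM. Series 6 stood apart here: 11 of its 34 cells had no Ldha read, against 0 to 5 cells in each other series. The row of Eno1, the enolase of most tissues (chromosome 4, 150236721 to 150248879), was low, at 0 to 136.5 CPM with a median of 13.3, and it is uncertain for a reason given with its near copy.

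The 3 remaining genes ranged between 0 and high values. Pdk1 (chromosome 2, 71873224 to 71903858) had reads in 32.3% of cells and reached 1758 CPM, with 22.4% of cells at 10 CPM (17.8 to 27.7%). Bnip3 (chromosome 7, 138890836 to 138909519) ranged from 0 to 2747 CPM with a median of 8.92, and 49.7% of cells reached 10 CPM (43.8 to 55.5%). Vegfa (chromosome 17, 46016993 to 46032369) ranged from 0 to 2160.9 CPM with a median of 2.31, and 42.2% of cells reached 10 CPM (36.5 to 48.05%). The order of the series differed for Vegfa: its highest median was in series 3, at 34.01 CPM, where Bnip3 had a median of 0. With every cell thinned to 200000 reads, which left out 15 cells, the shares at 10 CPM were 26.5% for Slc2a1, 22.6% for Pdk1, 51.6% for Bnip3 and 40.9% for Vegfa.

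**Figure D1:**
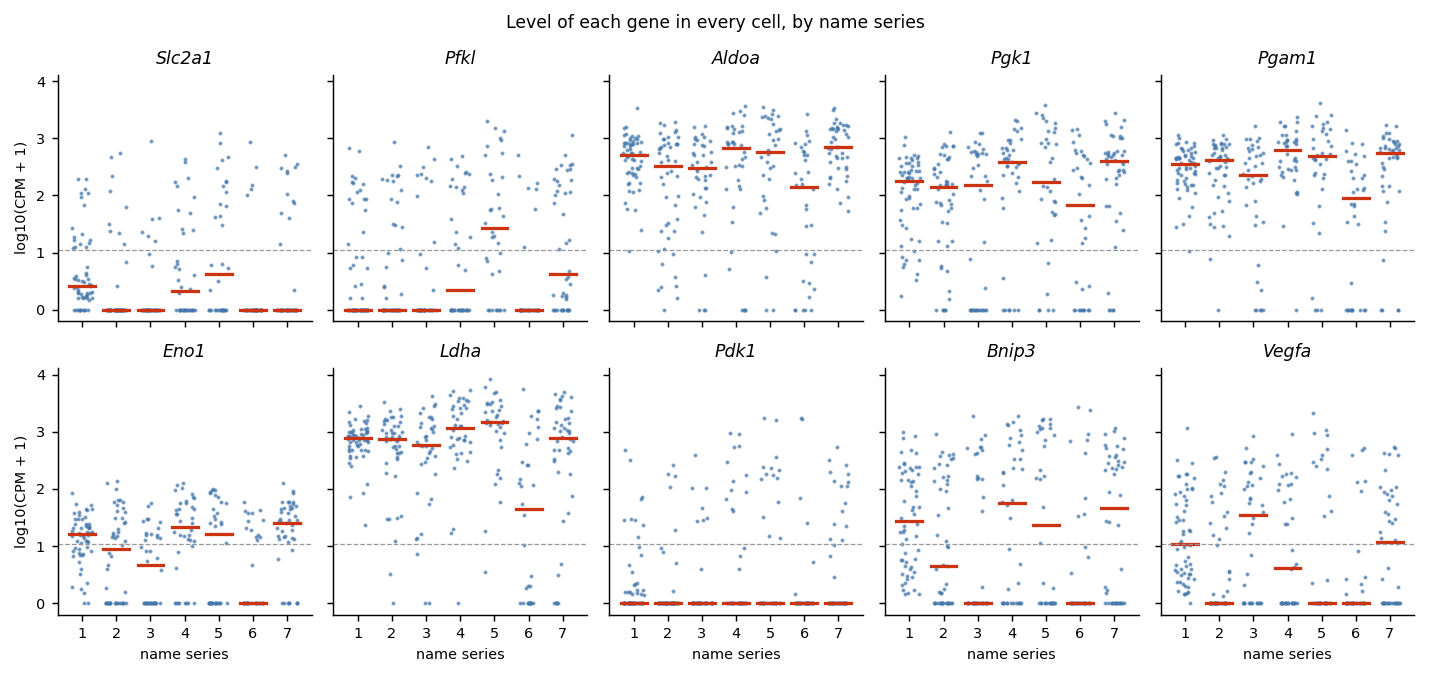
Level of each of the 10 genes in every cell, as log10(CPM + 1), against name series 1 to 7. Each point is a cell, red bars are series medians and the dashed line is 10 CPM. Aldoa, Pgk1, Pgam1 and Ldha form a high cloud with a tail at 0, while Slc2a1, Pfkl, Pdk1, Bnip3 and Vegfa spread from 0 to over 1000 CPM.

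Levels of different genes were compared only as mean CPM per kilobase of exon in GENCODE M21. On that scale Ldha was at 345.1, Pgam1 at 245.8, Aldoa at 181.4, Pgk1 at 173.7, Bnip3 at 97.3, Vegfa at 19.8, Pfkl at 13.6, Slc2a1 at 12.9, Pdk1 at 7.59 and Eno1 at 4.05. Between series these means overlapped widely for neighbours in the order: Aldoa ran from 97.3 to 269.4 and Pgk1 from 92.9 to 331.9. Vegfa, Pfkl and Slc2a1 likewise overlapped, at 8.05 to 49.5, 5.37 to 42.5 and 5.44 to 34.4 CPM per kilobase. The value for Aldoa is less sure, since 2 GENCODE genes carry that name.

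In 6 families with several forms the listed gene had the highest mean, narrowly for Pfkl and Bnip3. Ldhb, the subunit that favours pyruvate, was at 167.02 CPM per kilobase against 345.1 for Ldha, and the series ranges overlapped (95.7 to 267.2 against 166.6 to 611.01). Pgam2, the muscle mutase, was at 12.6 and Aldoc at 1.92. Slc2a1 exceeded the other glucose carriers, of which Slc2a10 was highest, at 3.07, and Slc2a3 was at 0.277. Elsewhere the margin was narrow or reversed. Pfkm, the muscle phosphofructokinase, was at 12.2 against 13.6 for Pfkl, and Pdk3, at 23.02, was above Pdk1. Vegfc, at 25.1, and Vegfb, at 21.3, were slightly above Vegfa, and Bnip3l, at 78.2, was near Bnip3.

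The low row of Eno1 went with a high row of Eno1b, its retrotransposed copy on another chromosome. Eno1b had a mean of 518.8 CPM against 21.8 for Eno1, or 276.4 against 4.05 per kilobase. Of the 50-base windows of the Eno1b transcript, 76.4% also occur in Eno1 transcripts, and the reads were sequenced as pairs of that length per the labels. Within series the rows had correlations of 0.77 to 0.93. The counts cannot tell which of the copies the reads came from. Aldoa and its copy Aldoart1 also had high correlations, 0.76 to 0.90, but Aldoart1 had a mean of only 6.41 CPM against 672.8 for Aldoa, and 4.69% of its windows occur in Aldoa.

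**Figure D2:**
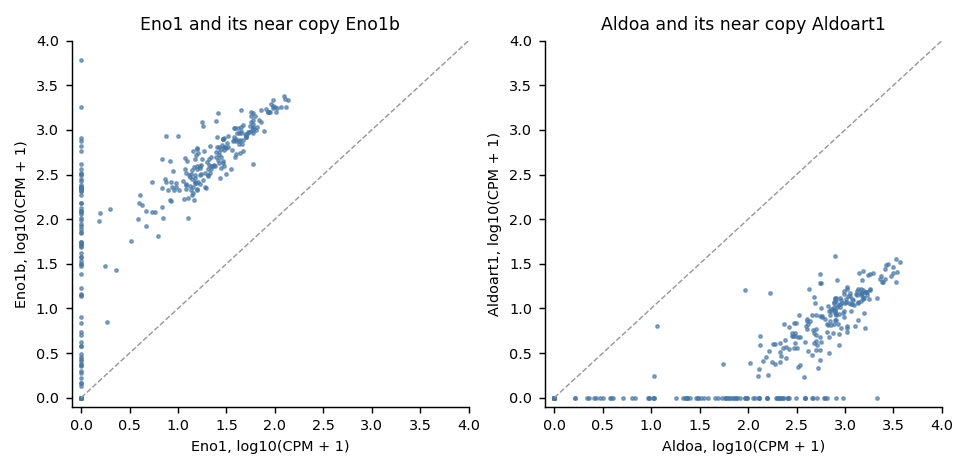
Each point is a cell, on log10(CPM + 1) axes, for Eno1 against Eno1b and Aldoa against Aldoart1, and the dashed line marks equal values. Eno1b lies above the line in nearly all cells with reads, while Aldoart1 lies far below it.

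Series 5 held the highest mean of every gene of the set but Eno1, which was highest in series 4. For each gene, the mean of a series plus 10 CPM was divided by the median of the other 6 series means plus 10 CPM, and a ratio of 2 or more was called. In series 5, 8 of the 10 genes were called higher, against 10.3% of the 8853 genes analysed, which are those with 10 CPM in 10% of cells or more. Pfkl had a ratio of 4.12, with a mean of 283.4 CPM in series 5 and 35.8 to 110.4 in the others. Pdk1 had a ratio of 3.64, Slc2a1 2.77, Vegfa 2.74, Pgk1 2.49, Ldha 2.22, Bnip3 2.11 and Pgam1 2.03. Aldoa, at 1.8, and Eno1, at 1.28, stayed below 2. The median ratio was 2.36 over the 10 genes and 1.02 over all genes analysed. These means rest on cells at the top of the range: with medians in place of means, 1 of the 10 genes was called. The share of all genes called with medians was not computed. The set was chosen with results of these cells in view, and Pfkl and Vegfa had a high fold in 1 cluster. Nothing more is therefore read from the contrast of the set with all genes.

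Series 6 held the lowest means of 4 of the 6 enzymes: Pfkl, Aldoa, Pgam1 and Ldha. Aldoa had a ratio of 0.497 and Pgam1 of 0.464, and ratios of 1/2 or less were found for 13.9% of all genes in that series. Ldha followed at 0.505 and Pfkl at 0.569. With medians in place of means, 6 genes of the set were called lower in series 6, and with the reads of Malat1, Rn45s and Lars2 left out of the totals, 1 was. The shares of all genes called in these settings were not computed, so nothing is read from these counts. Pdk1 went the other way, with a ratio of 2.54 (8.75% of all genes were called higher), but only 4 of 34 cells reached 10 CPM, 1 of them at 1737 CPM. Series 6 also had the fewest genes detected per cell, and the part of that in the low values was not tested. In the other series few genes were called. Pdk1 was higher in series 4, at 2.56 (5.15% of all genes), and lower in series 1, 2 and 3, at 0.333, 0.297 and 0.338 (7.24%, 7.24% and 5.95%). No gene of the set was called higher in series 1, 2 or 3 (5.64%, 7.48% and 7.78% of all genes) or lower in series 4 (4.98%). Bnip3 was lower in series 2, at 0.480. In series 7 no gene of the set was called in either direction (3.74% and 4.03% of all genes).

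Cells differed in how many of the genes they held. At 10 CPM or more, the median cell had 6 of the 10, with 9 cells holding all 10 and 2 cells holding none. The median was 7 in series 4 and 7, 6.5 in series 5, 6 in series 1, 5.5 in series 2, 5 in series 3 and 3 in series 6. At least 8 genes were found in 58 cells (19.7%), among them 35.3% of series 5 and 34.1% of series 7 but 7.89% of series 3. Of the 4 genes that are not enzymes (Slc2a1, Pdk1, Bnip3 and Vegfa), 17 cells (5.78%) held all 4 and 74 cells (25.2%) held none.

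The genes varied together from cell to cell within name series. Spearman's correlation of CPM was taken across the 34 to 58 cells of each series for each of the 45 pairs, and the median over the 7 series is given. Cells of a series share whatever its name digit stands for, and each pair shares its cells' depth. All 45 medians were above 0, with a middle value of 0.27 and a range of 0.035 to 0.49. In all 7 series the correlation was positive for 17 pairs. The matching shares over pairs of other genes were not computed, so these counts alone do not set the genes apart. Medians above 0 were common in these cells. With the mean rank of the genes of the set, used below as their score, 75.1% of 8843 other genes had a median above 0. A positive value in every series that gave a correlation was found for 5.17% of them. A median of 0.3 or more together with a positive value in every series was reached by 9 of the 45 pairs. With single genes of the set as reference, 0% to 0.249% of the other 8852 genes met that rule. Since the genes were chosen with results of these cells in view, nothing more is read from this contrast.

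Among the 6 enzymes the ties were closest. All of the enzymes but Pfkl also reached 10 CPM in more cells than the other 4 genes, and the part of detection was not tested. The 15 enzyme pairs had a middle value of 0.32, and 11 of these were positive in every series. Eno1 and Ldha had the highest median, 0.49 (0.10 to 0.72 over the series), followed by Aldoa and Pgam1 at 0.41 (0.054 to 0.57) and Aldoa and Ldha at 0.38 (0.0030 to 0.63). Pgk1 and Ldha also had 0.38, and theirs had the highest minimum over the series, at 0.29 to 0.62. Pairs of an enzyme with 1 of the other 4 genes had a middle value of 0.19 over 24 pairs, and the 6 pairs among those 4 genes had 0.18. Of those 4 genes, Slc2a1 and Bnip3 had the highest medians with enzymes. Slc2a1 had 0.32 with Pgk1, 0.31 with Ldha and 0.28 with Pgam1, each negative in at least 1 series. Bnip3 had 0.31 with Eno1 and with Pgam1 and 0.28 with Ldha, of which those with Eno1 and Ldha were positive in every series. Vegfa was the most detached: its medians were 0.035 with Pgk1 and 0.045 with Aldoa, and 0.29 with Pgam1.

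The joint variation was not alike in all series. The middle value over the 45 pairs was 0.35 in series 5 and 7 and 0.34 in series 4. It was 0.25 in series 6, 0.21 in series 2 and 0.12 in series 3. In series 1, the series with the most genes detected per cell, it was 0.014. There the enzyme pairs still had 0.14, while pairs of an enzyme with another gene had -0.043.

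**Figure D3:**
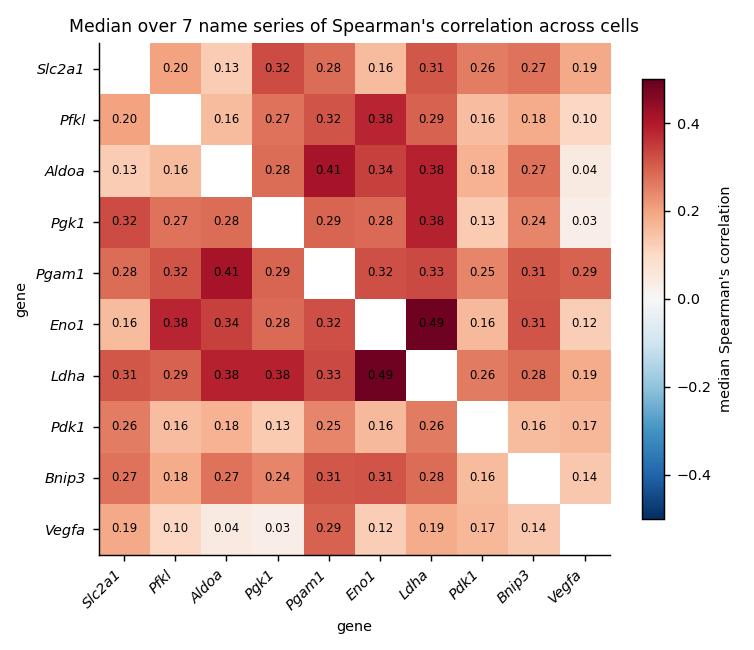
Median over the 7 name series of Spearman's correlation of CPM across cells, for each pair of the 10 genes, with the value written in each square. All squares are above 0. The darkest are Eno1 with Ldha and Aldoa with Pgam1, and the palest lie in the Vegfa row.

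Each gene was also set against the other 9, summarised as the mean of their ranks within the series. Median correlations were 0.53 for Eno1, 0.52 for Pgam1, 0.49 for Ldha, 0.48 for Pgk1, 0.47 for Aldoa, 0.43 for Bnip3, 0.38 for Pdk1, 0.31 for Slc2a1, 0.30 for Pfkl and 0.24 for Vegfa. They were positive in every series for 8 genes, and Slc2a1 and Pdk1 had -0.0041 and -0.0030 in series 1. The score of the 6 enzymes and the score of the other 4 genes had a median correlation of 0.48, from -0.091 in series 1 to 0.70 in series 7. Thus 5 of the 6 enzymes had the highest values, while Pfkl stood below Bnip3, Pdk1 and Slc2a1, and Vegfa was lowest. These 5 enzymes and Bnip3 reached 10 CPM in 49.7% to 89.8% of cells. Pfkl, Vegfa, Slc2a1 and Pdk1 did so in 22.4% to 42.2%. The part of detection in this order was not tested.

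Depth moved with the score of all 10 genes. Its median correlation was 0.26 with total reads (-0.076 to 0.57) and 0.29 with genes detected (-0.065 to 0.48). After total reads and genes detected were removed by partial rank correlation, the middle value over the 45 pairs was 0.20, and with cells thinned to 200000 reads it was 0.26. The score also ran against 3 abundant rows in several series. Lars2 was negative in all 7 series, at -0.65 in series 2, -0.46 in series 6 and -0.39 in series 5. Rn45s, the ribosomal precursor, had -0.70, -0.47 and -0.42 in the same series. Malat1, a nuclear RNA, had -0.75 in series 2 but 0.40 in series 3. With the reads of these 3 rows left out of the totals, the middle value over the 45 pairs was 0.27, as with them.

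Other genes of the same pathways ran with the score of the 10 genes, which uses none of them. Of 8843 other genes, 17 (0.192%) had a median correlation of 0.3 or more and a positive value in every series, and 0 (0%) had a median of -0.3 or less with a negative value in every series. The median over all 8843 was 0.056, with 5th and 95th percentiles of -0.083 and 0.20. A positive value in every series that gave a correlation, whatever its size, was found for 5.17% of all genes. It was found for 5 of 14 other glycolysis genes and for 5 of 24 other hypoxia targets. Of 20 other glycolysis genes listed, 14 could be analysed. Their median was 0.20, and 4 were among the 17: Tpi1, the triose phosphate isomerase, at 0.63 (0.12 to 0.73), Pkm, the pyruvate kinase, at 0.42, Gapdh at 0.39 and Slc16a3, the lactate exporter MCT4, at 0.38. Gpi1, the second enzyme of the path, had 0.27, and the hexokinases Hk2 and Hk1 had 0.21 and 0.20. Pfkm had -0.023, Ldhb 0.10 and Pfkfb2 -0.065.

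The other targets of the hypoxia response also lay mostly above the median of all genes. Of 32 listed, 24 could be analysed, with a median of 0.16, and 4 were among the 17. These were Fam162a, a mitochondrial HIF target, at 0.45 (0.11 to 0.67), the cytokine Mif at 0.42, the collagen prolyl hydroxylase P4ha1 at 0.39 (0.29 to 0.63) and the mitochondrial protein Higd1a at 0.35 (0.22 to 0.72). Pgm2 had 0.38 but was positive in 5 series only, and P4ha2 had 0.29. Egln3, Ndrg1 and Bhlhe40, also widely known targets, had 0.066, 0.065 and -0.013. Taken singly, the factors and sensors themselves lay near the median of all genes: over the 10 genes of that list the median was 0.043. None was called, against 0.192% of all genes, so that count says little. The mean rank score of that list had a median correlation of 0.18, positive in 6 of 7 series (-0.039 to 0.30). Hif1a had 0.12 (-0.041 to 0.38), Epas1 0.036, Arnt -0.016 and Vhl -0.026.

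Of the 17 genes, 3 were near copies: Eno1b at 0.65, Gm12070 at 0.58 and Aldoart1 at 0.51. Gm12070 shares 94.8% of its 50-base windows with Gapdh. The 6 others, named here after their values were seen, were Coa3, Bsg, Dhcr7, Rhoc, Hacd1 and Csrp1, at 0.32 to 0.36. Bsg encodes the partner protein of the lactate exporter. With depth removed by partial rank correlation, 11 genes were called. All 11 were among the 17, and the 6 lost were those just named. At the other end, among genes negative in every series, stood Lef1, a factor of Wnt signalling, at -0.27 (-0.46 to -0.091), then Lum, a matrix proteoglycan, at -0.19, Klf11 and Sall3 at -0.18 and Mstn at -0.16.

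**Figure D4:**
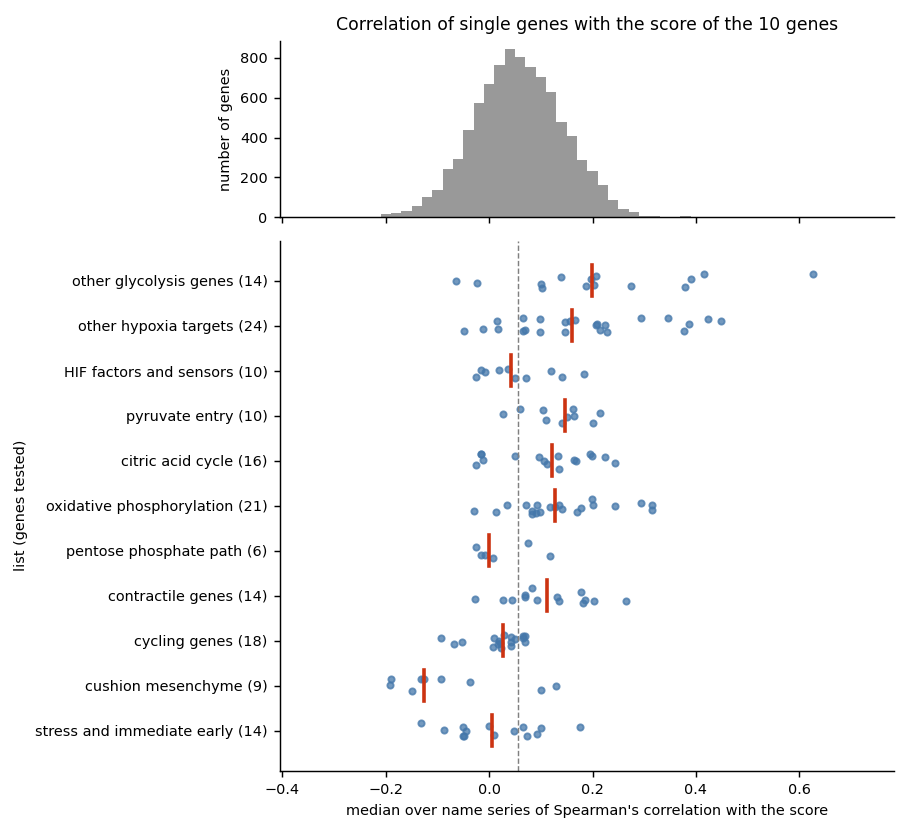
Top, the number of genes by median correlation with the score of the 10 genes, over 8843 other genes. Bottom, each point is a gene of a list, red bars are list medians and the dashed line is the median of all genes, 0.056. Other glycolysis genes and hypoxia targets reach farthest to the right, and cushion mesenchyme genes lie mostly left of 0.

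Cycling genes showed no steady relation to the set. The mean rank score of the cycling list had a median correlation of -0.073 with the score of the 10 genes, from -0.17 in series 5 to 0.32 in series 7, and it was positive in 3 of 7 series. Of 18 cycling genes analysed, none was called, against 0.192% of all genes, so that count says little. The 18 genes had a median of 0.026, below the 0.056 of all genes. Mki67, a marker of cycling cells, had -0.069 and Top2a, a topoisomerase of dividing cells, -0.052. Of single genes of the set, Pfkl had the highest median with the cycling score, 0.16 (-0.0014 to 0.25), and Bnip3 the lowest, at -0.13 (-0.27 to 0.28). Correlations of this size in sparse counts are no finding.

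Contractile genes showed a weak positive relation, of a size that lists of other genes also had. The contractile score had a median correlation of 0.19 with the score of the 10 genes and was positive in all 7 series, from 0.039 in series 1 to 0.33 in series 7. With total reads and genes detected removed, the median was 0.12. None of the 14 contractile genes was called, against 0.192% of all genes, so that count says little. The 14 genes had a median of 0.11, against 0.056 over all genes, of which 75.1% were above 0. The citric acid cycle score had 0.21 and was likewise positive in all 7 series. Acta2, the smooth muscle actin, was highest, at 0.27 (0.019 to 0.36), followed by Actg2 at 0.20, Tagln at 0.19, Actn1 and Myl9 at 0.18. Myh11, the smooth muscle myosin of mature cells, had 0.092. Lowest were Lmod1 at 0.044, Des at 0.027 and Cald1 at -0.027, below the median of all genes. Of single genes of the set, Ldha had the highest median with the contractile score, 0.21 (-0.10 to 0.36). Slc2a1, at 0.17 (0.013 to 0.48), Vegfa, at 0.16 (0.095 to 0.20), and Pfkl, at 0.14 (0.038 to 0.38), were positive in all 7 series. Bnip3 had the lowest median, -0.026.

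**Figure D5:**
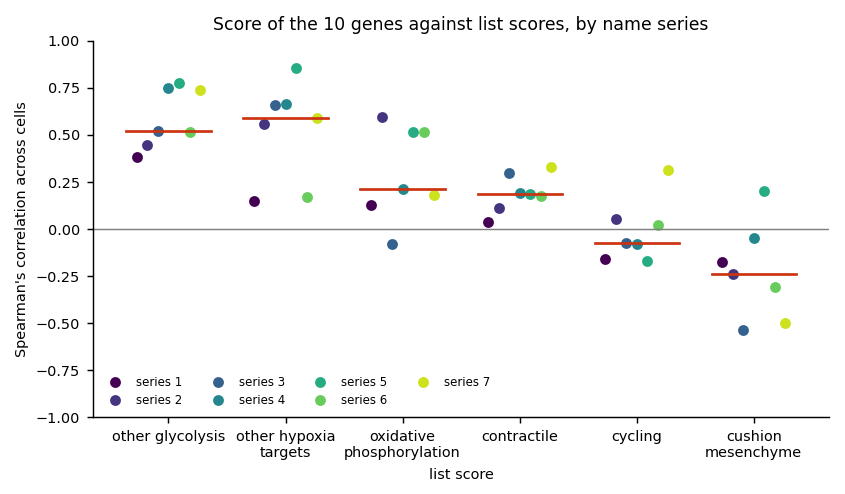
Spearman's correlation across cells between the score of the 10 genes and list scores, with 1 point for each name series and a red bar at the median. Glycolysis and hypoxia lists are above 0 in all 7 series, contractile genes are low but above 0, and cycling genes lie on both sides of 0.

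The cushion mesenchyme list, which holds matrix genes, the receptor gene Pdgfra and the factors Sox9 and Twist1, tended the other way. Their list score had a median correlation of -0.24 with the score of the 10 genes, negative in 6 of 7 series (-0.53 in series 3 and 0.20 in series 5). The 9 genes had a median of -0.13. Vcan and Lum were lowest, at -0.19, and Lum was negative in every series, as were 0.294% of all genes. Col1a1, at 0.13, and Sox9, at 0.10, were above 0. Of the genes of the set, Aldoa had the lowest median with this list, -0.23. Markers of other cell types had weak medians, at -0.022 for endothelium (1 gene analysed, Tek), 0.11 for neurons (1 gene, Tubb3), 0.13 for heart muscle (2 genes) and -0.15 for glia (2 genes), and their part in the joint variation was not tested.

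The genes most like each member were ranked among those with a positive value in every series. Counted over 8852 genes with a median of 0.3 or more and a positive value in every series, Eno1 had 22 (0.249%), Ldha 16 (0.181%), Pgam1 12 (0.136%), Aldoa and Pgk1 11 each (0.124%), and Slc2a1, Pfkl and Bnip3 4 each (0.0452%). Other genes of the set and near copies were counted too, such as Eno1b for Eno1 and Aldoart1 for Aldoa. The count for Eno1 shares the uncertainty of its row. For Ldha the nearest was Tpi1 at 0.56, for Pgk1 Gapdh at 0.42, for Pgam1 Gm12070 at 0.48 and Gapdh at 0.44, and for Bnip3 Gm12070 and Eno1b at 0.32. Under the same limit the nearest to Pfkl was Eno1, at 0.38, then Eno1b at 0.33, Gm12070 at 0.31, Pkm at 0.30 and, after Ppapdc1b and Hn1l, Gpi1 at 0.27. Pgam1, at 0.32 with Pfkl, and Ldha, at 0.29, were positive in 6 series. Among its lowest were Tpt1 at -0.27 and the ribosomal protein genes Rpl37 and Rps21, at -0.20 each. The 3 nearest to Slc2a1 under this limit were Crip1 at 0.34, Ict1 and Wrb at 0.31. Without the limit, Pgk1, at 0.32 and positive in 6 series, lay between Crip1 and Ict1.

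Vegfa and Pdk1 had no called partner (0% of 8852 genes for each). Among genes positive with Vegfa in every series, the highest median was 0.25, for Atm, and Bag2, 2900076A07Rik, Glyr1, Plcb3, Msrb3, Ddx17, Cntn4 and Meox2 were among the next, at 0.21 to 0.24. Pgam1, at 0.29 with Vegfa, was above Atm but positive in 6 series. Among genes negative in every series the lowest was Rest, at -0.23. None of the genes positive in every series that are named here for Vegfa was in the glycolysis or hypoxia lists. For Pdk1, among genes positive in every series, the nearest was Fut11 at 0.257, followed by Rgl1 and Mkrn2, while Ldha had 0.260 and was positive in 6 series. These correlations are weak. Vegfa had reads in 60.2% of cells and Pdk1 in 32.3%, against 42.2% for Slc2a1 and 48.3% for Pfkl. The part of detection was not tested. Vps35, Cttn and Serinc2, which stood beside Vegfa and Pfkl in the earlier cluster, had 0.13, 0.12 and 0.087 with the score of the 10 genes. The mean rank score of these 3 genes had 0.27, positive in all 7 series (0.090 to 0.45). They too were picked from results of these cells, so nothing more is read from it.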

How the data were processed

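RNA of 294 single cells was sequenced as read pairs, and the labels name no molecular identifiers. Per the submitters' processing notes, HISAT2 2.1.0, featureCounts and Seurat were used with the mm10 build. The annotation is not given in the sources used here. The authors' deposited counts are whole reads per gene (15124 genes). The second deposited table, named SCT by the authors, holds a normalised score for 14051 genes with totals of 1110845 to 1216916 per cell. How it was made is not stated, and it served only as an alternative.

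The 10 genes and all lists were chosen with earlier results of these data known. All 294 cells formed 1 group, no 2 cells had identical counts, and no p-value was computed. Counts were scaled to CPM with Python 3.11.15, numpy 2.4.6, pandas 2.3.3 and scipy 1.17.1. Shares carry exact Clopper-Pearson 95% intervals. Spearman's correlations were taken within each name series, over the 8853 genes with 10 CPM in 10% of cells or more. A series in which a gene did not vary gave no correlation. Such a series was passed over where a positive or negative value in every series is stated. Depth was 34046 to 3033857 reads per cell. Named genes are the 10 members, the listed genes, the 10 highest and 5 lowest correlates of the score, of Vegfa and of Pfkl, and the 3 highest of each other member. Some genes that this rule names are not reported here. The correlation code was tested on simulated data. Gene positions and exon lengths are from GENCODE M21 (GRCm38), where 14554 row names were found. Alternatives were Pearson's correlation, partial correlation on depth, thinning, the SCT table, other filters and leaving out each name series.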

Additional observations from a re-analysis of the deposited data

How the results depend on the processing

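Without name series as strata, with all cells pooled, the correlation of the score of the 10 genes was 0.160 with the cycling score and 0.335 with the contractile score, against -0.073 and 0.189 within series. Genes called with the score numbered 17, against 28 with Pearson's correlation of log2(CPM + 1), 11 with depth removed by partial correlation and 77 with all cells pooled. Of the 17, 14, 11 and 16 were called in these settings. Genes of the set called higher in series 5 fell from 8 to 1 with medians in place of means. Leaving out each name series in turn gave a middle pair correlation of 0.217 to 0.291, a cycling correlation of -0.077 to -0.025, a contractile correlation of 0.18 to 0.218, an enzyme score correlation of 0.376 to 0.499 and 17 to 25 called genes. With medians, the genes called went from 1 to 2 higher in series 4, from 2 to 1 lower in series 2, and in series 6 from 1 to 0 higher and from 2 to 6 lower. For all genes, the shares called with medians were not computed in any series. The sums of near copies, the alternatives of the enzyme score and thinning of the series ratios were chosen after seeing the data. Shares at 10 CPM moved with the threshold: Vegfa was at 60.2% of cells with 1 read or more and 21.1% at 100 CPM. The Ldha share rose to 94.6% without series 6. No paired analysis was possible because all cells form 1 group and no test was made.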

Other observations

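Genes of pyruvate use in mitochondria, counting the kinases that hold it back, had list medians between that of other glycolysis genes, 0.20, and that of all genes. With the score of the 10 genes, the 10 analysed genes of pyruvate entry and its control had a median correlation of 0.15. The 16 of the citric acid cycle had 0.12 and the 21 nuclear genes of oxidative phosphorylation 0.13, against 0.056 over all genes. None of these genes was called, against 0.192% of all genes, so that count says little. The oxidative phosphorylation score ranged from -0.077 in series 3 to 0.59 in series 2 around a median of 0.22. Atp5c1 and Uqcrc1 were highest, at 0.32 and 0.31, each positive in 6 of 7 series. Pdk3 had 0.16 and was positive in all 7 series, while Pdk2 had 0.11.

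The pentose phosphate path, which draws its glucose from the same pool, had a median of 0.00013 over 6 genes, with G6pdx at -0.016 and Pgd at 0.12. Immediate early and heat shock genes had 0.0053 over 14 genes, with Fos at -0.051, Atf3 at -0.13 and Ddit3 at 0.18. Other VEGF ligands did not run with the score: Vegfb had 0.064, Pgf 0.026, Vegfc 0.015 and Figf -0.064.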
